A study of Mus musculus with 4 samples.

Results

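The Cyp2c family genes described here are the 10 genes Cyp2c29, Cyp2c37, Cyp2c38, Cyp2c39, Cyp2c40, Cyp2c44, Cyp2c50, Cyp2c54, Cyp2c55 and Cyp2c70, out of 29432 genes measured. They were chosen by name, matched exactly to the gene symbol column of the authors' deposited table, and each had 1 probe set of its own. Liver RNA of 4 C57BL/6 mice aged 8 weeks was hybridised to Affymetrix MoGene 2.0 ST arrays, which carry probes along the whole transcript. The KO group held 2 Gdown1 KO livers and the FF group 2 control livers, all from untreated mice on standard diet killed around midday. Gdown1 is the RNA polymerase II-associated protein encoded by Polr2m. In the authors' deposited table the comparison is named Alb-cre vs f/f; Cre under the albumin promoter is a usual means of deleting a floxed gene in hepatocytes. No group with Cre and an intact gene was measured, so effects of Cre and of the deletion cannot be told apart. The sources used here do not state the sex of the mice, and liver levels of several Cyp2c genes are known to differ by sex.

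Cyp2c enzymes are haem-containing monooxygenases of the endoplasmic reticulum that oxidise drugs, fatty acids, steroids and retinoids with electrons from the reductase Por. In mouse liver several of them convert arachidonic acid to epoxides that act on vessels and inflammation, and Cyp2c70 makes the muricholic bile acids that mouse bile contains and human bile lacks. Their genes are known targets of the liver factor HNF4A, of the drug-sensing receptors CAR and PXR and of growth hormone signals.

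All 10 genes lie on chromosome 19 in the RefSeq table for GRCm38.p6; the file header names an mm10 annotation, which is the same assembly. Of these, 9 belong to a cluster of 14 protein-coding Cyp2c genes from 39006940 to 40187286, and Cyp2c44, listed by RefSeq as Cyp2c23, stands 3.82 Mb beyond its end, from 44005022 to 44029256. RefSeq start sites were given for 8 of the 10 genes; Cyp2c44 and Cyp2c54 were not matched. The 250 bases before the start are printed for 5 of them, 5′ to 3′ on the gene's own strand. The set holds a pair of close paralogs with the largest falls among these 5 genes, the bile acid enzyme gene, the gene Cyp2c29 and a gene that did not fall. Capitals mark CAAAGTC, the core of the HNF4 element, AGGTCA, an element of nuclear receptors, and TATAAA, the TATA box, each searched on both strands.
Cyp2c37: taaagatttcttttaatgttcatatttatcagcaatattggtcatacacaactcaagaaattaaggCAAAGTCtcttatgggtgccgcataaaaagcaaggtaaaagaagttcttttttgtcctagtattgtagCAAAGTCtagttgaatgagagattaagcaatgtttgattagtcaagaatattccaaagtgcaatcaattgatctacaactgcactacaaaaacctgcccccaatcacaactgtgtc
Cyp2c50: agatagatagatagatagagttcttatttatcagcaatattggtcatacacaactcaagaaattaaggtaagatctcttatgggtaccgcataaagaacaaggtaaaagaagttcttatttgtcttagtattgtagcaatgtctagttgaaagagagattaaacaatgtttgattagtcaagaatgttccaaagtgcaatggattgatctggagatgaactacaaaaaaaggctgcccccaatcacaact
Cyp2c70: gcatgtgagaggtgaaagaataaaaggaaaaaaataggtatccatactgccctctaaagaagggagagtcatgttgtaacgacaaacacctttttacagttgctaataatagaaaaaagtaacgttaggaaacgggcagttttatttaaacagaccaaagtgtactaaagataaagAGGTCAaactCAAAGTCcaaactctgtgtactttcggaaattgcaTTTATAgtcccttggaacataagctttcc
Cyp2c29: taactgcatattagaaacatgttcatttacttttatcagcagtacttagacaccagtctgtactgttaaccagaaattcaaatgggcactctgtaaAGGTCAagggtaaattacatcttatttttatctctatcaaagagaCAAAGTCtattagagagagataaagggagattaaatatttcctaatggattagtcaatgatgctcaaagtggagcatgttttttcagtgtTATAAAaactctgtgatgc
Cyp2c40: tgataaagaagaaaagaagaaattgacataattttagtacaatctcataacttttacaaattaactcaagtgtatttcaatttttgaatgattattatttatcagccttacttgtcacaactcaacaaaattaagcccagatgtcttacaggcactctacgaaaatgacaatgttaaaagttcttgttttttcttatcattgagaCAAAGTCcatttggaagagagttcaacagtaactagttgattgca
The windows are chr19:39992174-39992423 (plus strand), chr19:40089429-40089678 (plus), chr19:40187287-40187536 (minus), chr19:39286835-39287084 (plus) and chr19:39812815-39813064 (minus) in GRCm38.p6. CAAAGTC stood in 5 of the 8 matched genes, namely Cyp2c29, Cyp2c37, Cyp2c39, Cyp2c40 and Cyp2c70, against 3.84% of 32851 windows of the same length over all genes. AGGTCA stood in 3 of the 8, namely Cyp2c29, Cyp2c39 and Cyp2c70, against 14% of all windows. TATAAA stood in 4 of the 8, namely Cyp2c29, Cyp2c38, Cyp2c55 and Cyp2c70, against 12.4% of all windows. Of the 5 other Cyp2c genes matched, Cyp2c65 to Cyp2c69, CAAAGTC stood in 5, AGGTCA in 0 and TATAAA in 3, so CAAAGTC is not particular to the listed members. These counts are of genes, and the shares are of windows. No match overlapped another in these windows. For Cyp2c29, Cyp2c38, Cyp2c55 and Cyp2c67 the start used lies inside the RefSeq span of the gene, so part of each window does too. In Cyp2c29 and Cyp2c55 that part holds the TATAAA. Cyp2c39 had a further start, whose window lies wholly inside the span of the gene and was searched too. The windows of Cyp2c37 and Cyp2c50 were the most alike of the 28 pairs, which leave out the further Cyp2c39 window, with 84.3% identity. The middle of the 28 values lay between 49% and 50.9%, and the lowest was 40.4%. In Cyp2c37 CAAAGTC began 116 bases before the start, and the aligned bases of Cyp2c50 differed from it by A4T, counted from the first letter of the element. A further CAAAGTC in Cyp2c37 began 184 bases before the start, where the aligned bases of Cyp2c50 differed by 3 substitutions. A match in letters is a description and does not show that a factor binds.

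The comparison of KO with FF livers asked which members differ when Gdown1 is deleted. Most of the family was lower in KO liver, but not all of it. Cyp2c37, Cyp2c50, Cyp2c54 and Cyp2c70 fell by 1.28 to 2.76 on the log2 scale and passed the test, while Cyp2c29, Cyp2c38 and Cyp2c55 were at least 2-fold lower by mean without passing it. Cyp2c44, Cyp2c39 and Cyp2c40 did not pass either, and their means differed by less than 2-fold. Thus 4 of 10 genes fell and 0 rose (limma, adjusted p under 0.05 over all genes), against 0.778% of all genes lower and 0.996% higher. Among the 4216 genes with a mean log2 value above 6, which include 7 of the 10 members and the 4 called ones, 3.2% were called lower and 2.28% higher. The median log2 fold change of the 10 genes was -1.20, against -0.02 over all genes. Both KO arrays lay below both FF arrays for 8 of the 10 genes, a pattern that 25% of all genes and 29.4% of those with a mean above 6 showed, and above them for 1, which 21.6% showed. At least a 2-fold lower mean was found for 7 of the 10, against 0.809% of all genes and 3.01% of those with a mean above 6, and at least a 2-fold higher mean for 0, against 1.15% of all genes. With 4 arrays precision is limited: without any single array limma called 0 of the 10, with 7 or 8 at an unadjusted p under 0.05, against 7 of the 10 and 17% of all genes with the full set. With all 41345 probe sets tested, limma also called 0 of the 10, and 7 had an unadjusted p under 0.05.

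**Figure D1:**
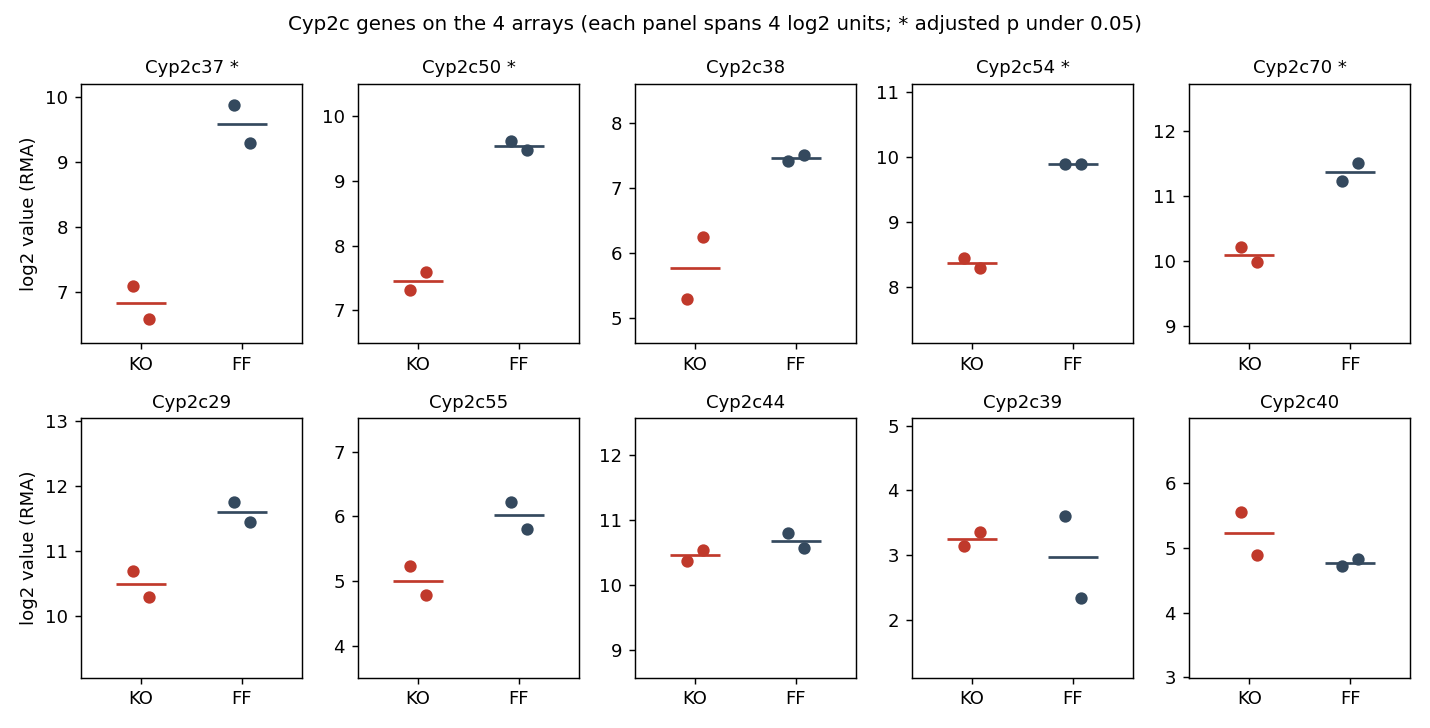
Log2 values (RMA) of the 10 Cyp2c genes on each array, KO in red at left and FF in dark grey at right, with a bar at the group mean and panels in order of the log2 fold change. Both KO points lie below both FF points in 8 panels, above them for Cyp2c40, and overlap for Cyp2c39.

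Among the 4 called members the largest falls were in Cyp2c37, Cyp2c50 and Cyp2c54, neighbouring genes whose enzymes oxidise arachidonic acid. Cyp2c37 had log2 values of 7.09 and 6.58 on the KO arrays, against 9.89 and 9.30 on the FF arrays. The groups lay far apart, and the difference was several times the gap between replicates. Its log2 fold change was -2.76 ± 0.25 (SE; limma adjusted p = 0.0139), or a level 6.76-fold lower in KO, which ranked 13 from the lowest of 29432 genes. Cyp2c50 had values of 7.31 and 7.60 in KO liver, against 9.61 and 9.47 in FF liver. Again both KO values lay under both FF values, and the replicates of each group stood close together. The log2 fold change was -2.09 ± 0.15 (limma adjusted p = 0.00707), which is 4.25-fold lower. Cyp2c54 had values of 8.45 and 8.29 in KO liver, against 9.90 and 9.90 in FF liver, with a log2 fold change of -1.53 ± 0.12 (limma adjusted p = 0.00941), or 2.89-fold lower. Its FF replicates were closer to each other than those of any other member, and its KO arrays did not reach them.

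Cyp2c70, the enzyme that hydroxylates bile acids to muricholic acids, had log2 values of 10.21 and 9.98 on the KO arrays, against 11.23 and 11.52 on the FF arrays. Both KO arrays were lower by more than either group's spread. The log2 fold change was -1.28 ± 0.15 (limma adjusted p = 0.0261), so the KO level was 41.2% of the FF level. Among 12 further bile acid synthesis and conjugation genes measured, 5 fell and 0 rose, with a median log2 fold change of -0.85. These included Cyp8b1 at -3.88, the enzyme that steers synthesis towards cholic acid, Baat at -2.43, which joins bile acids to amino acids, and Slc27a5 at -0.94, which activates them first. Over all genes 0.778% were called lower and 0.996% higher. Among genes with a mean above 6 the shares were 3.2% and 2.28%.

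Cyp2c29, Cyp2c38 and Cyp2c55 had lower means in KO liver and did not pass the test over all genes. Cyp2c29, a drug- and arachidonate-metabolising enzyme known to respond to CAR, had log2 values of 10.70 and 10.29 in KO liver, against 11.76 and 11.45 in FF liver. The groups did not overlap, and the log2 fold change was -1.11 ± 0.19 (limma adjusted p = 0.0568), with a 95% interval from -1.57 to -0.65. Cyp2c38, another arachidonate-oxidising enzyme, had values of 5.28 and 6.23 in KO liver, against 7.41 and 7.51 in FF liver. Its mean log2 fold change of -1.70 ± 0.30 was larger than that of Cyp2c54, but the KO replicates differed by 0.95 while the FF replicates differed by 0.10, and the limma adjusted p was 0.0645. Cyp2c55, an enzyme best known from gut and from liver exposed to inducers, had values of 5.23 and 4.78 in KO liver, against 6.22 and 5.81 in FF liver. The groups again stood apart, with a log2 fold change of -1.01 ± 0.21 (limma adjusted p = 0.0895).

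The other members showed no change that the test could resolve. Cyp2c44, an epoxygenase whose gene stands outside the cluster, had log2 values of 10.37 and 10.54 in KO liver, against 10.80 and 10.57 in FF liver. The upper KO array nearly touched the lower FF array. The log2 fold change was -0.23 ± 0.14 (limma adjusted p = 0.478), and its 95% interval, from -0.58 to 0.11, does not reach a 2-fold fall. Cyp2c39, whose enzyme hydroxylates retinoic acid, had values of 3.14 and 3.36 in KO liver, against 3.60 and 2.34 in FF liver. Both KO values lay between the FF values, the lower of which is under 2.825. That value is the 95th percentile of 1127 olfactory receptor genes, used as a guide to background. Its log2 fold change of 0.28 ± 0.39 (limma adjusted p = 0.793) had an interval from -0.69 to 1.25 and turned to -0.35 without FF replicate 2. Cyp2c40, which oxidises arachidonic acid to a hydroxy acid, had values of 5.55 and 4.89 in KO liver, against 4.71 and 4.82 in FF liver. KO replicate 2 lay only just above FF, and the log2 fold change was 0.45 ± 0.23 (limma adjusted p = 0.391), with an interval from -0.10 to 1.01; without KO replicate 1 it was 0.12.

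**Figure D2:**
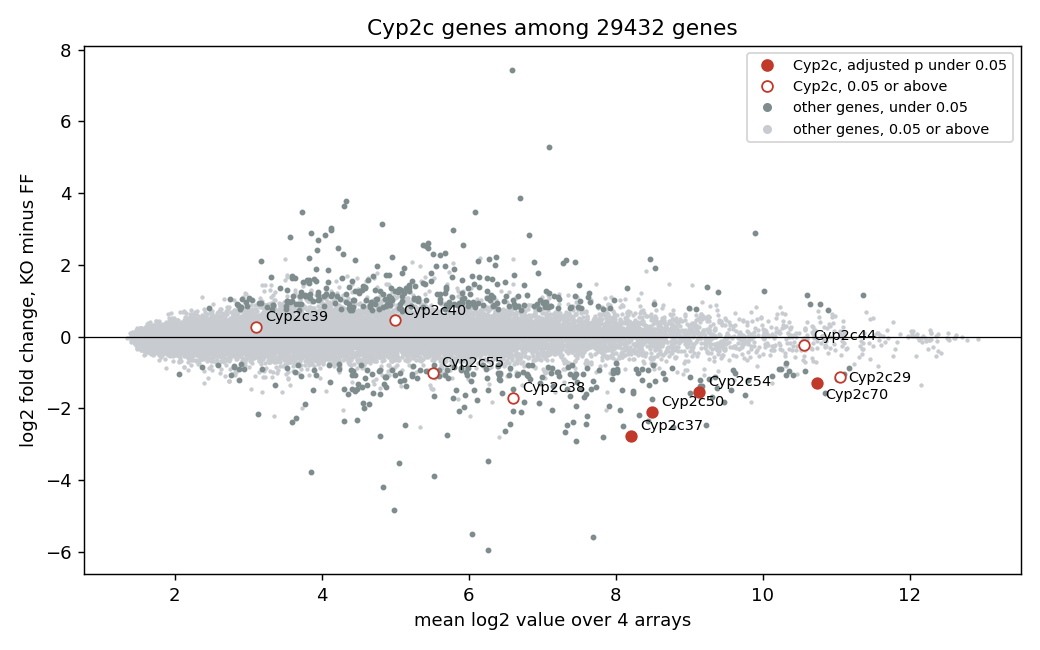
Log2 fold change of KO over FF against the mean log2 value over the 4 arrays for 29432 genes, with the Cyp2c genes in red, filled where the limma adjusted p was under 0.05. The 4 filled Cyp2c genes lie between -2.76 and -1.28, and Cyp2c39, Cyp2c40 and Cyp2c44 lie near 0.

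To compare members with each other, the log2 difference between the genes was taken on each array for the 45 pairs. With 2 arrays in each group the exact permutation test (two-sided) cannot go below p = 0.333, so no pair could pass and the values that follow are a description. The log2 fold change of Cyp2c37 lay 2.53 below that of Cyp2c44 and 0.67 below that of its close paralog Cyp2c50. Against Cyp2c38 it lay 1.06 lower, with overlapping differences between the groups.

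In the order of the chromosome, Cyp2c37, Cyp2c54, Cyp2c50 and Cyp2c70 are the last 4 genes of the cluster, from 39992424 to 40187286, and these were the 4 members called. Whether calls depend on position was not tested, and Cyp2c67, in the middle of the cluster, was called too. Of the 10 genes before them, 5 are members (Cyp2c55, Cyp2c29, Cyp2c39, Cyp2c38 and Cyp2c40), of which none passed, though Cyp2c38, Cyp2c29 and Cyp2c55 had adjusted p from 0.0568 to 0.0895 (limma), and 5 are other Cyp2c genes. Among those other genes, Cyp2c67 fell, with log2 values of 8.99 and 8.92 in KO liver, against 10.49 and 10.65 in FF liver (log2 fold change -1.61 ± 0.12, limma adjusted p = 0.00887). Its neighbour Cyp2c68, at -0.36 ± 0.14, and Cyp2c69, at 0.62 ± 0.36, did not pass, and Cyp2c65 and Cyp2c66 lay under 2.825 on every array. RefSeq places Cyp2c38 within the span of Cyp2c39. Cyp2c genes are close paralogs, so probe sets may hold probes that bind several transcripts, and how far that applies to each was not tested. One further probe set lists Cyp2c53-ps and Cyp2c29 together and was left out of the gene tests; it lay at 1.80 and 1.71 in KO liver, against 2.89 and 2.86 in FF liver.

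Of 9 genes near the cluster, 0 fell and 1 rose, the nucleolar protein gene Noc3l at 1.00 ± 0.14 (limma adjusted p = 0.0394), and the median log2 fold change was 0.29. Pdlim1, the next protein-coding gene beyond Cyp2c70, was at 0.29 and did not pass. Around Cyp2c44, 1 of 12 genes fell, the desaturase gene Scd1 at -1.16, and 1 rose, Abcc2 at 0.75, whose protein exports conjugates into bile. Over all genes 0.778% were called lower and 0.996% higher. Pdlim1 was named for its place beside the cluster after its value was seen.

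**Figure D3:**
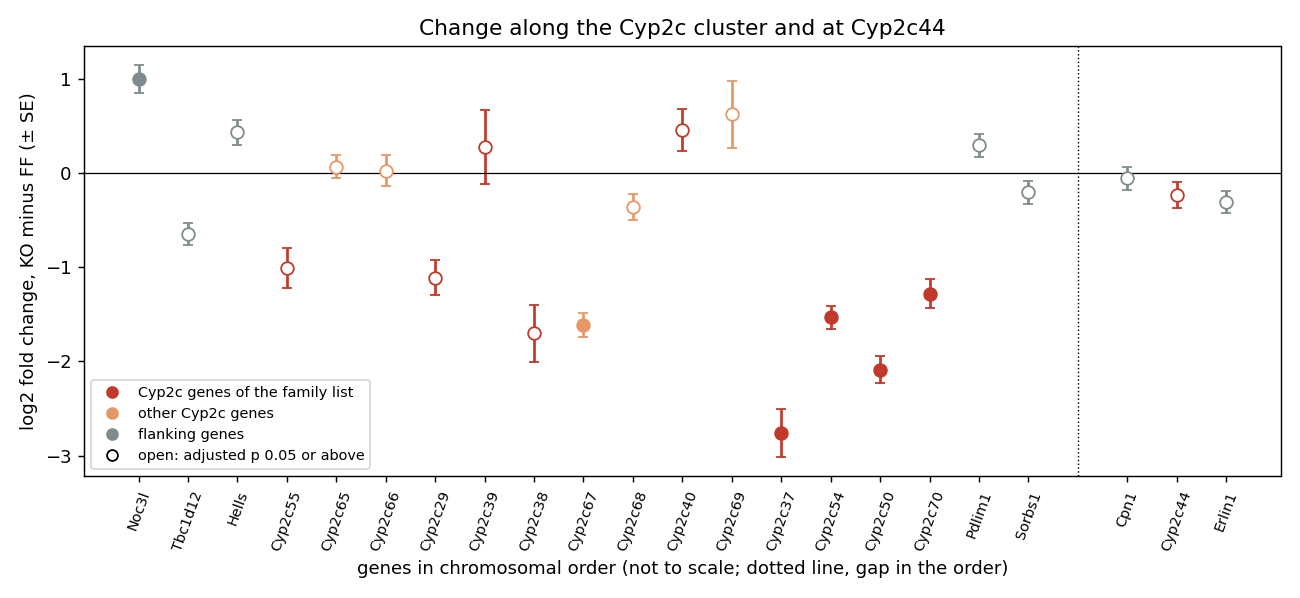
Log2 fold change of KO over FF (± SE) for genes in chromosomal order, not to scale, with listed Cyp2c genes in red, other Cyp2c genes in orange and flanking genes in grey; filled points passed limma at an adjusted p under 0.05. Cyp2c37, Cyp2c54, Cyp2c50 and Cyp2c70 stand side by side between -2.76 and -1.28, and Cyp2c44, right of the dotted line, lies at -0.23.

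The authors' deposited table, which gives group averages on the log2 scale without p-values, had the same direction for all 10 genes. In the authors' deposited table Cyp2c37 averaged 7.53 in Alb-cre and 10.3 in f/f liver, a signed fold change of -6.83. Cyp2c50 stood at a signed fold change of -5.39, Cyp2c38 at -4.1 and Cyp2c54 at -2.91 in the authors' deposited table. There 7 genes were at least 2-fold lower and none at least 2-fold higher, the nearest being Cyp2c39 at 1.86 and Cyp2c40 at 1.77 in the authors' deposited table.

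**Figure D4:**
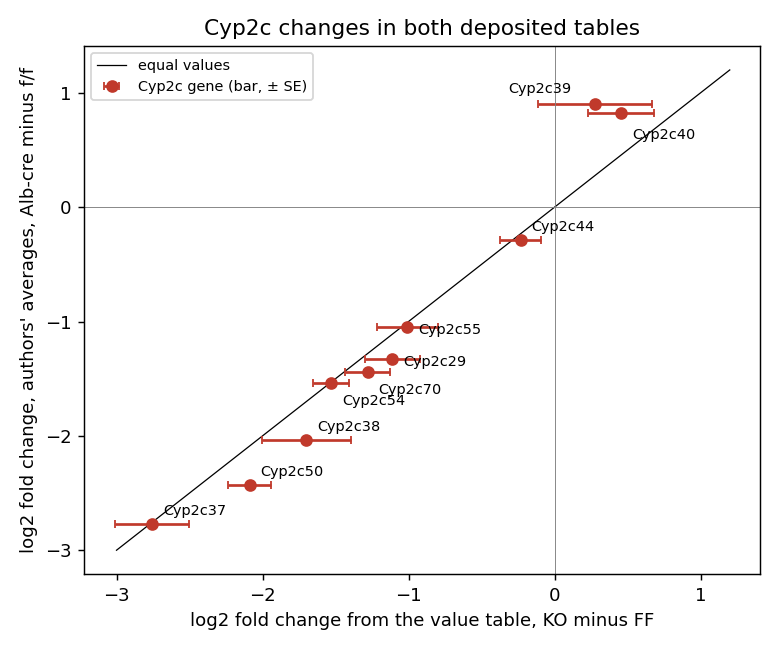
Log2 fold change of each Cyp2c gene from the value table (horizontal, ± SE) against that of the authors' averages (vertical), with the line of equal values. Cyp2c37, Cyp2c54, Cyp2c55 and Cyp2c44 lie near the line, and Cyp2c39 and Cyp2c40 lie above it, at 0.90 and 0.82 in the authors' deposited table against 0.28 and 0.45.

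No gene listed as acting on Cyp2c transcription passed the test. Of 24 nuclear receptors and other factors known to act on Cyp2c genes, 0 passed limma at an adjusted p under 0.05 in either direction. Over all genes 0.778% were called lower and 0.996% higher, so 0 calls among 24 do not show that these genes were unchanged. Their median log2 fold change was -0.18. Both KO arrays lay below both FF arrays for 10 and above them for 4, against 25% and 21.6% of all genes. Foxa1, a pioneer factor of liver genes, had log2 values of 5.97 and 6.53 in KO liver, against 7.16 and 6.84 in FF liver (limma adjusted p = 0.170). Nr1i3, which encodes CAR, had 7.19 and 7.35 in KO liver, against 7.99 and 7.86 in FF liver, a log2 fold change of -0.65 ± 0.13 (limma adjusted p = 0.0740). Both had KO values below the FF values and neither passed. Among 17 other CAR and PXR targets, 3 rose and 0 fell: the stress-response gene Gadd45b at 1.85 ± 0.15, the aldehyde dehydrogenase gene Aldh1a7 at 0.77 ± 0.12 and Abcc2. Their median was 0.25. Cyp2b10 and Cyp3a11, the standard CAR and PXR reporters in mouse liver, were picked after their values were seen. They had log2 fold changes of 0.38 ± 0.53 and 0.16 ± 0.17 and did not pass (limma adjusted p = 0.788 and 0.714). Cyp2b10 had 5.10 and 3.36 in KO liver, against 4.01 and 3.67 in FF liver. For both genes the authors' deposited averages were lower in Alb-cre than in f/f liver. Of the 17 targets, 6 had a lower mean in KO liver. Both KO arrays lay below both FF arrays for 3 of the 17 and above them for 9, against 25% and 21.6% of all genes.

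Of 17 genes for electron supply and haem, 0 passed; Por, the electron donor of all microsomal P450 enzymes, had 8.17 and 8.16 in KO liver, against 7.50 and 7.55 in FF liver (log2 fold change 0.64 ± 0.11, limma adjusted p = 0.0630). Hmox1, which breaks haem down, was at 1.28 ± 0.41 with KO replicates of 6.73 and 5.47. Among 24 other genes of arachidonic acid metabolism, 2 fell and 1 rose, with a median of -0.12. The shares over all genes were 0.778% called lower and 0.996% called higher. Of these 24, 9 had a mean under 2.825, the guide to background. Both KO arrays lay below both FF arrays for 11 of the 24 and above them for 4, against 25% and 21.6% of all genes. Cyp4f14 and Cyp4f13, fatty acid hydroxylases, fell by 1.39 ± 0.18 and 0.98 ± 0.16 on the log2 scale. Ephx1, an epoxide hydrolase of the endoplasmic reticulum, rose by 1.27 ± 0.13 (limma adjusted p = 0.0168), with 10.69 and 10.61 in KO liver, against 9.47 and 9.29 in FF liver.

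Whole liver was measured, so fewer hepatocytes and less RNA per hepatocyte cannot be told apart. The 11 hepatocyte markers measured, among them albumin, gave 0 calls and a median log2 fold change of -0.06. Their summed level on the log2 scale was 15.29 and 15.31 in KO liver, against 15.34 and 15.32 in FF liver. Of 18 markers of hepatocytes around the central vein, 1 fell, the P450 gene Cyp1a2 at -1.08 ± 0.13, and 1 rose, the ammonium transporter gene Rhbg at 1.69 ± 0.18, with a median of -0.37. Of 18 periportal markers 4 fell and 0 rose, with a median of -0.31, led by Pigr at -2.46 and Hal at -2.18. Kupffer and stellate cell markers had higher values in KO liver. All 13 Kupffer cell and macrophage markers had both KO values above both FF values, against 21.6% of all genes, though 0 passed the test (limma); their summed log2 level was 11.32 and 10.69 in KO liver, against 10.19 and 10.31 in FF liver. Of 11 stellate cell markers 4 rose, including Col3a1 at 1.68, Col1a1 at 1.51 and Col1a2 at 1.29, and the summed level was 11.44 and 11.18 in KO liver, against 10.53 and 10.36 in FF liver. Of 10 cholangiocyte and progenitor markers 1 rose, Prom1 at 1.69, with summed levels of 9.28 and 8.89 in KO liver, against 7.60 and 8.16 in FF liver. Both KO values lay above both FF values for 9 of the 11 stellate and 7 of the 10 cholangiocyte markers, and below them for 0 in either list. No Kupffer or stellate marker and 4 of the 10 cholangiocyte markers had a mean under 2.825. Of 11 endothelial markers and of 10 lymphocyte and neutrophil markers 0 passed, with medians of 0.14 and -0.06. In these lists both KO values lay above both FF values for 6 of the 11 and 2 of the 10, and below them for 0. Of the 10 lymphocyte and neutrophil markers, 6 had a mean under 2.825, so a change in these could be missed. The part of these cell types in the Cyp2c result was not tested.

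**Figure D5:**
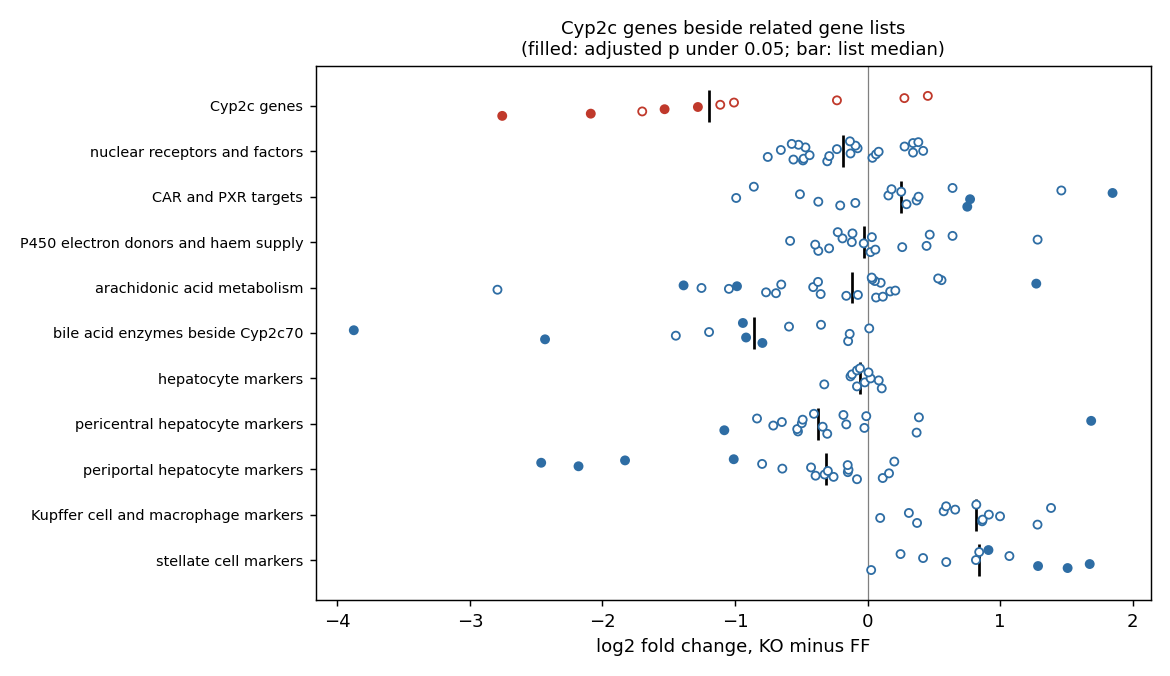
Log2 fold change of KO over FF for the Cyp2c genes (top, red) and for genes of related lists (blue), filled where the limma adjusted p was under 0.05, with a bar at each list's median. The Cyp2c median of -1.20 and the bile acid median of -0.85 lie furthest to the left of the lists drawn, hepatocyte markers lie close to 0, and Kupffer and stellate markers lie to the right.

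Among 3878 named genes with a mean above 6, those whose values over the 4 arrays were most like the average Cyp2c profile were found by Euclidean distance after centring each gene on its mean. The average of the 10 centred members was -0.51 and -0.59 on the KO arrays, against 0.67 and 0.43 on the FF arrays. The 5 nearest genes were Sgms2, a sphingomyelin synthase gene, at a distance of 0.0926, Gckr, the regulator of glucokinase, at 0.0961, Mccc2, of leucine breakdown, at 0.125, the hepatic lipase gene Lipc at 0.142, and Ccbl1 at 0.146. They were chosen for this likeness, so their log2 fold changes of -1.14 to -0.98 are a description.

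The targeted gene Polr2m had log2 values of 6.35 and 6.18 on the KO arrays, against 7.35 and 7.38 on the FF arrays, a log2 fold change of -1.10 ± 0.12 (limma adjusted p = 0.0215). The sources used here do not say whether its probes lie in the deleted part, and liver also holds cells without albumin-driven Cre. Array medians ran from 2.88 to 2.92, and Pearson's r across probe sets was 0.986 between the KO arrays and 0.984 between the FF arrays, against 0.972 to 0.976 between groups.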

How the data were processed

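The deposited value table holds log2 values for 41345 probe sets on 4 arrays, which the authors deposited after RMA; the submitters' processing notes name Affymetrix Expression Console. RMA equalises the distributions of the arrays, so a change in total RNA cannot be seen. The log base was taken from the authors' deposited table, which gives log2 averages and a signed fold change (a score with a sign, per the file headers) for MoGene-2_0-st with an mm10 annotation, and which supplied the gene symbols. The sources used here do not say how it was averaged. Probe sets with 1 symbol were kept (29945, or 29432 genes; for a gene with several, the one with the highest mean). KO was compared with FF by limma 3.58.1 in R 4.3.3 (lmFit, eBayes, no block, no filter), with Benjamini-Hochberg adjustment over all genes and a threshold of 0.05; the test had 2 residual and 3.79 prior degrees of freedom. Errors after ± are limma standard errors. The labels call the samples biological replicates. The fit was also run on data simulated with independent noise from its own variance model. Such a run cannot show how the fit performs on these 4 arrays.

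The members and 17 gene lists (246 entries) were chosen with earlier results of these data known. Of each list the text names up to 3 called genes per direction, or, with no call, some of the 2 largest changes; exceptions are stated. Promoter windows are RefSeq's (GRCm38.p6), aligned with Biopython 1.88. Alternatives were a replicate block, other variance models, normalizations, filters, probe set choices, tests and thresholds, and leaving out each array. The labels give no batch.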

Additional observations from a re-analysis of the deposited data

How the results depend on the processing

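Under limma's default settings 4 of the 10 Cyp2c genes were called lower. The count was 6 with a variance trend, with median centring and without the 50% of genes with the lowest means, 5 with cyclic loess, 4 with probe sets averaged and 3 with treat against 1.2-fold. It was 7 with a robust variance trend and with an adjusted p under 0.1, which added Cyp2c29, Cyp2c38 and Cyp2c55. It was 0 with all probe sets tested (7 at an unadjusted p under 0.05), 0 in an ordinary 2-sample test (5), and 0 without any single array (7 to 8). With the replicate number as a block 1 was called, Cyp2c37. Across all genes, deviations of same-numbered arrays correlated at -0.00639. With 2 arrays in each group this value cannot show whether the numbers pair the samples. Over all genes the count of 522 became 30 with the replicate block, 975 with the robust trend, 850 without the dimmer genes, 42 with all probe sets, 1 in the ordinary test, 1235 at an adjusted p under 0.1, 209 with treat, and 0 without any single array (3364 to 3958 at an unadjusted p under 0.05). Without one array 1 sample stands for a group, which is assumed to vary like the other. The number of genes at least 2-fold lower was 5 to 7 with single arrays left out and 6 or 7 under median centring, cyclic loess and the authors' averages. Directions of the 10 genes kept under every setting run except that of Cyp2c39, which ran from -0.35 without FF replicate 2 to 0.91 without FF replicate 1. The cause of these shifts was not tested.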

Other observations

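Of 11 genes of retinoid metabolism, the substrate pathway of Cyp2c39, 0 passed limma at an adjusted p under 0.05 in either direction, with a median log2 fold change of 0.11. Lrat, which stores retinol as esters and also marks stellate cells, had log2 values of 8.68 and 8.11 in KO liver, against 7.50 and 7.15 in FF liver (log2 fold change 1.07 ± 0.23, limma adjusted p = 0.0917).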
